A study of Mus musculus with 27 samples.

Results

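The RNAs recovered with an antibody against HuR were compared with the total RNA of the same kind of cells after activation with LPS. The comparison used 8 of the 27 libraries of the series: 4 anti-HuR ribonucleoprotein immunoprecipitation (RIP) libraries and 4 total RNA libraries. The cells of all 8 were RAW264.7, an established macrophage line of the mouse, given lipopolysaccharide (LPS) at 1 µg/ml together with the vehicle DMSO for 6 h. RNA and RIP libraries carried replicate numbers 1 to 4, and 1 further library of the same treatment was made with control IgG (replicate 3). The control treatment used for reference was DMSO alone, with 4 RNA, 4 RIP and 1 IgG library. RNA from cells given LPS and TM7nox at 10 µM, a tanshinone mimic, was used to class genes by their response, and the RNA and RIP libraries of that treatment also entered the estimate of spread. The labels do not say whether replicates were separate cultures, so p-values measure the spread between these libraries, which may be technical. Of 55483 genes in the table, 14311 had enough counts to be tested.

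HuR, the product of Elavl1, is an RNA-binding protein that shuttles between nucleus and cytoplasm and attaches to stretches rich in U or in A and U, mostly in 3′ untranslated regions (3′ UTRs). It is known for protecting mRNAs that carry AU-rich elements from decay and for changing their translation. In macrophages many cytokine mRNAs carry such elements, and decay factors such as tristetraprolin (Zfp36) compete for them. A RIP measures which RNAs come down with the protein. Set against total RNA, it gives how far each RNA was recovered above or below its level in the cells.

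The 4 RIP libraries held 26.2 to 34.9 M counts and the 4 RNA libraries 17.4 to 28.3 M. Mitochondrially encoded genes took 0.559 to 1.86% of counts in RIP and 12.1 to 17.9% in RNA, with RIP replicate 4 the highest of the RIP libraries. RIP RNA came from a detergent lysate cleared by centrifugation and total RNA from whole cell pellets. Losses in clearing and recovery by the antibody cannot be told apart in RIP over RNA alone, and the IgG library is given beside the results for that reason. All 10 macrophage markers checked were tested, at a summed 5203 to 7251 CPM in the RNA libraries and 2294 to 3322 CPM in RIP. In RIP 8 were lower (80.0%) and none higher by edgeR, with a median log2 fold change of -1.18. Of all genes tested 30.8% were lower, and of those at 5 CPM or more in RNA 44.9%, with a median of -0.34. Markers of epithelial cells, fibroblasts and T cells summed to at most 0.393 CPM in any of the 8 libraries. Of 5 B cell and 5 neutrophil markers only Pax5 (2.42) and S100a8 (-2.08) had enough counts to be tested, and their part in the results was not tested. Levels are counts scaled to a common library size (CPM) on a common TMM scale, which discounts genes that dominate a library. A CPM is therefore not a share of counts, and recovery is relative to the typical gene.

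Elavl1 mRNA itself was among the most strongly recovered. The RIP libraries 1 to 4 held 3914, 4798, 3383 and 2695 CPM of Elavl1, and the RNA libraries 119.6, 128, 94.7 and 98.2 CPM. All 4 RIP libraries lay far above all 4 RNA libraries (log2 fold change 5.07 ± 0.247, SE, edgeR FDR 4.55e-15). The IgG library, at 91.2 CPM, was at the level of total RNA. The gene (ENSMUSG00000040028) lies at chr8:4332576-4375489 on GRCm39 and overlaps Ccl25 on the other strand. Its RNA level was not called different between LPS+TM7nox and DMSO.

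Of the 14311 genes, 9109 (63.7%) were called at a false discovery rate (FDR) under 0.05, 4708 (32.9%) higher and 4401 (30.8%) lower in RIP. Of the higher genes 3956 (27.6% of those tested) passed a log2 value of 1, and of the lower genes 2494 (17.4%) passed -1. The genes tested included 1942 with too few counts for a fit of the RNA libraries alone, of which 1283 were higher, 15 lower and 644 not called. They met the filter on counts only with the RIP libraries included, which favoured calls of higher. Without them, 27.7% of 12369 genes were higher and 35.5% lower, with a median log2 fold change of -0.24. Among the 8269 genes with at least 5 CPM in RNA, 2383 (28.8%) were higher and 3715 (44.9%) lower, with a median log2 fold change of -0.34. Over all tested genes the median was -0.06 with TMM scaling and 0.11 with median-of-ratios (RLE) scaling, so values within about that shift of 0 have no firm sign. The upper tail was the longer one, with 10% of genes at 5 CPM or more above 2.27.

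Among induced RNAs with at least 20 CPM in RNA, those recovered furthest above their level encoded glycosyltransferases, a cell surface proteoglycan and regulators of signalling and transcription. B4galt5, a galactosyltransferase of lactosylceramide synthesis, held 7723, 11136, 13265 and 18482 CPM in the RIP libraries and 158, 191, 254 and 238 CPM in the RNA libraries. This was a 59.8-fold recovery (log2 fold change 5.90 ± 0.384, SE, edgeR FDR 9.61e-13), with the IgG library at 279.8 CPM. Sdc4, the heparan sulfate proteoglycan syndecan-4, held 45242, 61109, 68275 and 70174 CPM in RIP and 1092, 1392, 1458 and 1506 CPM in RNA (log2 fold change 5.48 ± 0.319, SE, edgeR FDR 1.12e-13). For both genes every RIP library lay far above every RNA library. Ugcg, the glucosylceramide synthase, reached 5.48 (edgeR FDR 3.52e-14), and Cebpb, a transcription factor of the inflammatory response, 5.42 (edgeR FDR 4.12e-09). Pim1, a survival kinase, held 2530.0, 3317, 2966 and 4136 CPM in RIP against 104, 123, 109 and 114 CPM in RNA (log2 fold change 4.84 ± 0.343, SE, edgeR FDR 5.06e-12). The endosomal protein gene Plekhf2 (4.69) and the complement receptor gene C5ar1 (4.42) were also among the 8 induced genes with the highest recovery at 20 CPM or more in RNA. None of the 8 had overlapping RIP and RNA libraries, which the rule that chose them required.

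**Figure D1:**
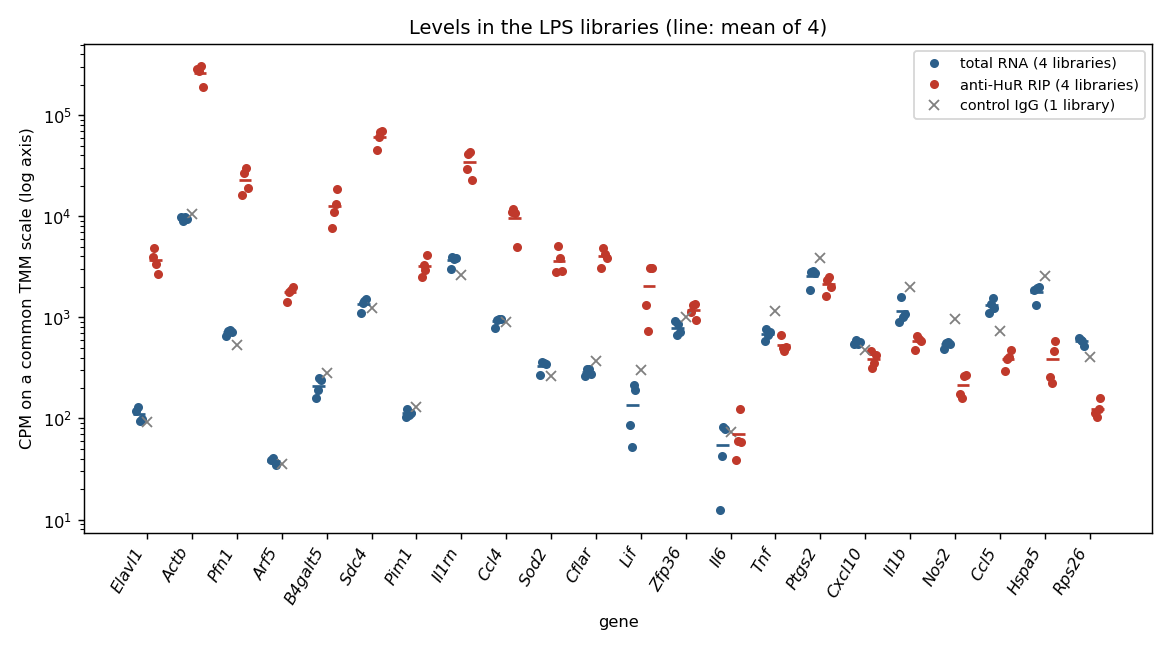
CPM on a common TMM scale (log axis) of 22 genes in the 4 total RNA (blue), 4 anti-HuR RIP (red) and 1 control IgG (grey cross) libraries of LPS-treated cells, with lines at the means of 4. From Elavl1 to Lif the red points lie above all blue points, from Zfp36 to Cxcl10 they lie close to or among them, and from Il1b to Rps26 they lie below.

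Of 21 cytokine genes tested, 5 were higher (23.8%) and 7 lower (33.3%), 9 were not called, and the median was -0.07. Of all genes tested 32.9% were higher and 30.8% lower, and of those at 5 CPM or more in RNA 28.8 and 44.9%. Il1rn, the interleukin-1 receptor antagonist, held 29108, 41448, 43541 and 22752 CPM in RIP and 3029.7, 3972, 3807 and 3890.4 CPM in RNA (log2 fold change 3.21 ± 0.431, SE, edgeR FDR 5.07e-07). Lif, a cytokine of the interleukin-6 family, held 1312, 739, 3048 and 3044 CPM in RIP and 85.5, 52, 213 and 190.1 CPM in RNA (log2 fold change 3.90 ± 0.815, SE, edgeR FDR 0.00019). Both assays varied widely for Lif, yet no RIP library fell to the range of RNA. Osm, a related cytokine, rose by 2.10 (edgeR FDR 8.01e-06). The other two higher members, Il15 (0.98) and Inhba (2.29), were named after their values were seen, and Inhba had only 0.181 CPM in RNA.

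Most other cytokines were not called above their RNA level. Tnf held 662, 492, 460.0 and 514 CPM in RIP and 588, 761, 675 and 713 CPM in RNA. These overlapped and the difference was not called (log2 fold change -0.36 ± 0.305, SE, edgeR FDR 0.303). The control IgG library held 1152 CPM of Tnf, more than any of the 8. Il6 (log2 fold change 0.35 ± 0.547, SE, edgeR FDR 0.596) and Il10 (log2 fold change 0.11 ± 0.36, SE, edgeR FDR 0.807) were not called either, and their libraries overlapped. For Il6 the RNA libraries alone spread from 12.3 to 82.7 CPM, so only large differences were detectable. Il1b was lower in RIP, at 476, 654, 610.4 and 578 CPM against 901, 1598, 1013 and 1086 CPM (log2 fold change -0.99 ± 0.405, SE, edgeR FDR 0.0347), with 1974 CPM in IgG. The Il1b call was lost without RNA LPS replicate 2 (-0.79, edgeR FDR 0.116) and in 8 other alternatives, including the fits without RNA LPS replicate 4 or RIP LPS replicate 1, 3 or 4 (edgeR FDR 0.0503 to 0.0827). Csf1, the macrophage growth factor, fell to -1.50 (edgeR FDR 0.000374), and Tnfsf9, the ligand of the costimulatory receptor 4-1BB, to -1.34 (edgeR FDR 0.0193). The Tnfsf9 call was lost when any of RNA LPS replicates 3 and 4 or RIP LPS replicates 1 and 2 was left out, with edgeR FDR values of 0.0587 to 0.0638. The interferon gene Ifnb1 held 18.7 ± 6.59 CPM in RIP and 8.32 ± 3.64 CPM in RNA (SD, n = 4 each). Its 4 RIP libraries lay above the 4 RNA libraries, but the call was missed (log2 fold change 1.14 ± 0.576, SE, edgeR FDR 0.0864). With the replicate block Ifnb1 was called (1.30, edgeR FDR 0.00185).

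Of 15 chemokine genes tested, 2 were higher (13.3%), 5 lower (33.3%) and 8 not called, with a median of -0.54. Of all genes tested 32.9% were higher and 30.8% lower, and of those at 5 CPM or more in RNA 28.8% were higher and 44.9% lower. Ccl4, a macrophage inflammatory protein, held 11074, 11888, 10798 and 4996 CPM in RIP and 776, 950.4, 973 and 972 CPM in RNA (log2 fold change 3.39 ± 0.44, SE, edgeR FDR 2.98e-07), while IgG held 892. RIP replicate 4 was well below the other 3 RIP libraries and still above every RNA library. Ccl9 rose by 2.07 (edgeR FDR 5.82e-06). Ccl3, a related macrophage inflammatory protein, held 6902 ± 1861 CPM in RIP and 4149.9 ± 1069.5 CPM in RNA (SD, n = 4 each) and was not called (log2 fold change 0.72 ± 0.455, SE, edgeR FDR 0.169). Ccl5 was lower in RIP, at 296, 385, 406 and 474 CPM against 1115, 1361, 1553 and 1246 CPM (log2 fold change -1.76 ± 0.316, SE, edgeR FDR 3.07e-05), and Ccl12 reached -2.03 (edgeR FDR 0.00224). Ccl12 was not called in replicates 1 and 2 alone (-1.80, edgeR FDR 0.115). Cxcl10 was not called (log2 fold change -0.54 ± 0.264, SE, edgeR FDR 0.0779), although its RIP libraries all lay below the RNA libraries. With the replicate block it was called lower (edgeR FDR 0.0401).

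Genes of the interferon response were mostly lower in RIP. Of 42 tested, 29 were lower (69.0%), 4 higher and 9 not called, with a median of -0.92. Of all genes at 5 CPM or more 44.9% were lower, with a median of -0.34. Ifitm3, a membrane protein that restricts viral entry, reached -1.84 (edgeR FDR 1.6e-07), and the ubiquitin-like modifier gene Isg15 -1.66 (edgeR FDR 0.000119). The exceptions were led by Trim30a, a TRIM protein that dampens Toll-like receptor signalling. Trim30a held 3964, 4844, 4874 and 3739 CPM in RIP and 338, 365, 320.0 and 331 CPM in RNA (log2 fold change 3.68 ± 0.194, SE, edgeR FDR 1.65e-14). Rsad2, the antiviral enzyme viperin, rose by 1.02 (edgeR FDR 0.0128) and the guanylate-binding protein gene Gbp7 by 0.73 (edgeR FDR 0.048). Rsad2 was not called in replicates 1 and 2 alone (0.95, edgeR FDR 0.0765). The Gbp7 call was lost in 13 of 26 alternatives, among them each fit without 1 of the 4 RNA LPS libraries (edgeR FDR 0.0585 to 0.103) or RIP LPS replicate 1, 2 or 3 (0.0714 to 0.136). It was also lost without RNA DMSO replicate 2 or RIP DMSO replicate 2 or 3 (edgeR FDR 0.0521 to 0.0541).

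Among effector enzymes and surface proteins, 7 of 31 were higher (22.6%), 11 lower (35.5%) and 13 not called. The median of -0.34 equals that of all genes at 5 CPM or more, of which 28.8% were higher and 44.9% lower. Sod2, the mitochondrial superoxide dismutase, held 2796, 5029.9, 3823 and 2887 CPM in RIP and 272, 359, 357 and 345 CPM in RNA (log2 fold change 3.44 ± 0.234, SE, edgeR FDR 2.42e-12). The heme oxygenase gene Hmox1 rose by 2.65 (edgeR FDR 3.15e-09), and Slc7a11, which imports cystine for glutathione synthesis, by 2.61 (edgeR FDR 1.64e-09). Nos2, the inducible nitric oxide synthase, was lower, with 174, 159, 262 and 271 CPM in RIP and 488, 561, 566 and 542 CPM in RNA (log2 fold change -1.32 ± 0.283, SE, edgeR FDR 0.000238). Its IgG library held 970.4 CPM. Ptgs2, the inducible cyclooxygenase, held 1629, 2354, 2495 and 1983 CPM in RIP and 1885, 2832, 2896 and 2738 CPM in RNA. It was lower in RIP in all 4 same-numbered pairs but was not called (log2 fold change -0.30 ± 0.337, SE, edgeR FDR 0.444), nor with the replicate block (edgeR FDR 0.389). The acute phase gene Saa3 (-2.06) and Ass1, which recycles citrulline to arginine (RIP over RNA 0.25 on the linear scale), were the lowest of the list.

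Of 22 NF-kB factors and feedback genes, 4 were higher (18.2%), 6 lower (27.3%) and 12 not called (median -0.41). Of all genes tested 32.9% were higher and 30.8% lower, and of those at 5 CPM or more in RNA 28.8% were higher and 44.9% lower. Cflar, the caspase-8 inhibitor c-FLIP, held 3071, 4903, 4206 and 3832 CPM in RIP and 261, 309.7, 308 and 274 CPM in RNA (log2 fold change 3.79 ± 0.241, SE, edgeR FDR 6.12e-13). Socs1, which blocks JAK signalling, rose by 2.55 (edgeR FDR 1.55e-05) and the NF-kB subunit gene Rel by 1.67 (edgeR FDR 7.93e-08). The NF-kB inhibitor gene Nfkbia, also higher at 1.37, was named after its value was seen. The other subunit named by the rule, Nfkb2, fell to -1.06 (edgeR FDR 0.00135), and the inhibitor gene Tnip2 to -1.30 (edgeR FDR 1.78e-07). Of 26 immediate early genes 12 were higher (46.2%) and 4 lower (15.4%), with a median of 0.31. Their highest members were the antiproliferative gene Btg1 (4.38), the phosphatase gene Dusp5 (3.46) and the AP-1 subunit gene Jund (2.87). Ier5 (-1.07, edgeR FDR 0.000134) and the AP-1 subunit gene Fosl1 (-0.94, edgeR FDR 0.0343) were lower. The Fosl1 call was lost in 8 alternatives, including the fits without RIP LPS replicate 2 or 3 and without RNA LPS replicate 3 or 4 (edgeR FDR 0.0615 to 0.0964).

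mRNAs of AU-rich element binding and decay factors, a list that holds Elavl1 itself as its highest member, were mostly higher in RIP. Of 24 genes tested, 17 were higher (70.8%), 3 lower and 4 not called, beside 32.9% higher and 30.8% lower of all genes tested and 28.8 and 44.9% of those at 5 CPM or more in RNA. The median of 1.67 was the highest of the 20 lists. Msi2, a Musashi RNA-binding protein, held 388, 692, 549 and 504 CPM in RIP and 11, 21.2, 21.7 and 16.6 CPM in RNA (log2 fold change 4.90 ± 0.286, SE, edgeR FDR 1.22e-13). Hnrnpl, a splicing regulator, reached 4.64 (edgeR FDR 5.62e-16). Zfp36, which encodes tristetraprolin, rose less, with 1134, 1338, 1342 and 943 CPM in RIP and 918, 676, 863 and 708 CPM in RNA (log2 fold change 0.59 ± 0.229, SE, edgeR FDR 0.0273). Its call was lost in 7 alternatives, including the fits without RNA LPS replicate 2 or 4 or RIP LPS replicate 2 or 3 (edgeR FDR 0.0656 to 0.0912). Ptbp1, the polypyrimidine tract binding protein (-1.09, edgeR FDR 5.58e-06), and Cnot1, the scaffold of the deadenylase complex (-0.70, edgeR FDR 0.00054), were lower. Among hnRNP and SR splicing factor genes 15 of 30 were higher and 8 lower (26.7%, beside 30.8% of all genes tested and 44.9% of those at 5 CPM or more), with a median of 0.41. Srsf9 reached 4.99 (edgeR FDR 6.84e-15) and Hnrnpa0 3.37 (edgeR FDR 1.11e-07), against -1.24 (edgeR FDR 1.86e-06) for Hnrnpdl and -0.91 (edgeR FDR 4.01e-05) for Hnrnpa2b1. The list shares 3 genes with the AU-rich element list.

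mRNAs reported as HuR targets in general were recovered more often than not. This list was drawn from textbook knowledge and includes genes for which these data were already known. Of 39 tested, 21 were higher (53.8%), 4 lower (10.3%) and 14 not called, beside 32.9% higher and 30.8% lower of all genes tested and 28.8 and 44.9% of those at 5 CPM or more. Their median was 0.69. Beside Elavl1 the highest were Actb and Cdkn1b, the cyclin-dependent kinase inhibitor p27 (3.45). The lowest were Nos2 and Actg1.

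The paralogous actin genes were recovered in opposite directions. Actb, the beta-actin gene, held 285751, 274169, 305083 and 188141 CPM in RIP and 9775, 8889.5, 9746 and 9461 CPM in RNA, a 27.8-fold recovery (log2 fold change 4.80 ± 0.263, SE, edgeR FDR 3.58e-14). The IgG library held 10442 CPM, close to total RNA. By plain share, Actb took 12.3 to 18.3% of all counts in the RIP libraries and 1.06 to 1.29% in the RNA libraries. Actg1, the gamma-actin gene, held 474, 363, 499 and 416 CPM in RIP and 996, 945, 1228 and 1184 CPM in RNA (log2 fold change -1.32 ± 0.26, SE, edgeR FDR 0.000101). All 4 of its RIP libraries lay below the RNA libraries. Reads that fit both actin genes or their processed pseudogenes could have been assigned to either, and how the counting treated them is not given in the sources used here.

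Of 42 actin cytoskeleton genes tested, 14 were higher (33.3%), 19 lower (45.2%) and 9 not called (median -0.31). Of all genes at 5 CPM or more 28.8% were higher and 44.9% lower, so the list as a whole was near the background. Pfn1, the actin monomer binding protein profilin, held 16195, 27000.0, 29945 and 18979 CPM in RIP and 654, 737, 747 and 713 CPM in RNA (log2 fold change 5.01 ± 0.244, SE, edgeR FDR 4.55e-15). Marcks, which links actin to the membrane, rose by 4.26 (edgeR FDR 1.72e-09). Tmsb10, a thymosin that sequesters monomers, fell to -2.31 (edgeR FDR 3.58e-06) and the crosslinker filamin, Flna, to -1.60 (edgeR FDR 3.09e-06).

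Constitutive mRNAs were also among the most strongly recovered. A gene was classed constitutive when its RNA was not called between LPS+TM7nox and DMSO and its log2 fold change there was under 0.5 in size. It was classed induced when called and higher by 1 or more on the log2 scale. This contrast leaves out the LPS RNA libraries on which recovery rests. It combines the responses to LPS and to TM7nox, so an mRNA raised by LPS but not by LPS+TM7nox could be classed constitutive. By plain share Actb took 1.06 to 1.29% of counts in RNA LPS libraries and 0.549 to 0.634% in RNA LPS+TM7nox. In RNA DMSO it took 0.53 to 1.04%, the most in replicate 1. By the class contrast 1526 of 12369 genes (12.3%) were induced and 1534 (12.4%) repressed, at most -1. Among the 8 constitutive genes with the highest recovery at 20 CPM or more in RNA, beside Elavl1, were Arf5, a small GTPase of the Golgi, Lsm12 and Tram1, a component of the endoplasmic reticulum translocon. Arf5 held 1429, 1790.1, 1882 and 1990.5 CPM in RIP and 38.7, 40.2, 37.3 and 35 CPM in RNA (log2 fold change 5.55 ± 0.234, SE, edgeR FDR 4.05e-16). Lsm12 reached 5.49 and Tram1 5.35. The poly(A) nuclease subunit gene Pan3 (5.32), the ubiquitin ligase gene Znrf2 (5.20), the nuclear transport factor gene Nutf2 (5.17) and the ribosome biogenesis gene Rsl24d1 (5.11) made up the rest.

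Without regard to class, St3gal4, a sialyltransferase, had the highest recovery among coding genes that averaged 5 CPM or more in the 8 LPS libraries, with 1607, 1899, 1247 and 1143 CPM in RIP and 20.2, 23.8, 16.1 and 17.2 CPM in RNA (log2 fold change 6.26 ± 0.263, SE, edgeR FDR 4.05e-16). Next came the Mediator subunit gene Med18 (6.08). Lyrm4, an iron-sulfur cluster assembly factor (5.79), the tetraspanin gene Tspan5 (5.67), the gasdermin gene Gsdme (5.67) and the ubiquitin ligase subunit gene Fbxl14 (5.64) were close behind. Gsdme reached 6.30 without RNA LPS replicate 2. Pabpn1, the nuclear poly(A) binding protein, reached 5.99, or 5.13 without RIP LPS replicate 4 and 4.87 in replicates 1 and 2 alone, and the predicted gene Gm20521 overlaps it on the same strand. Msi1 (6.01) and Nnat (5.66) also ranked here but had only 0.193 and 0.241 CPM in RNA. These 2 genes, Med18, Pabpn1 and Gsdme were under 5 CPM in RNA and met the filter on level only through RIP, which favoured their rank.

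The shares of induced and constitutive RNAs that were recovered lay close together. Of the 1526 induced genes, 314 (20.6%) were higher by a log2 fold change of at least 1, against 980 of 4858 constitutive genes (20.2%) and 389 of 1534 repressed genes (25.4%). Median log2 fold changes were -0.24, -0.34 and -0.10. Genes lower in RIP made up 33.0% of the induced, 39.8% of the constitutive and 28.2% of the repressed class. Among genes with at least 5 CPM in RNA the shares recovered by that margin were 20.6, 19.9 and 23%. Each of these stands beside 21.2% of all 8269 genes at that level. With the class taken from LPS over DMSO, a contrast that shares the RNA LPS libraries, the shares were 21% for induced and 19.6% for constitutive genes. The 1942 genes with too few counts for the fit of RNA libraries are in no class.

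**Figure D2:**
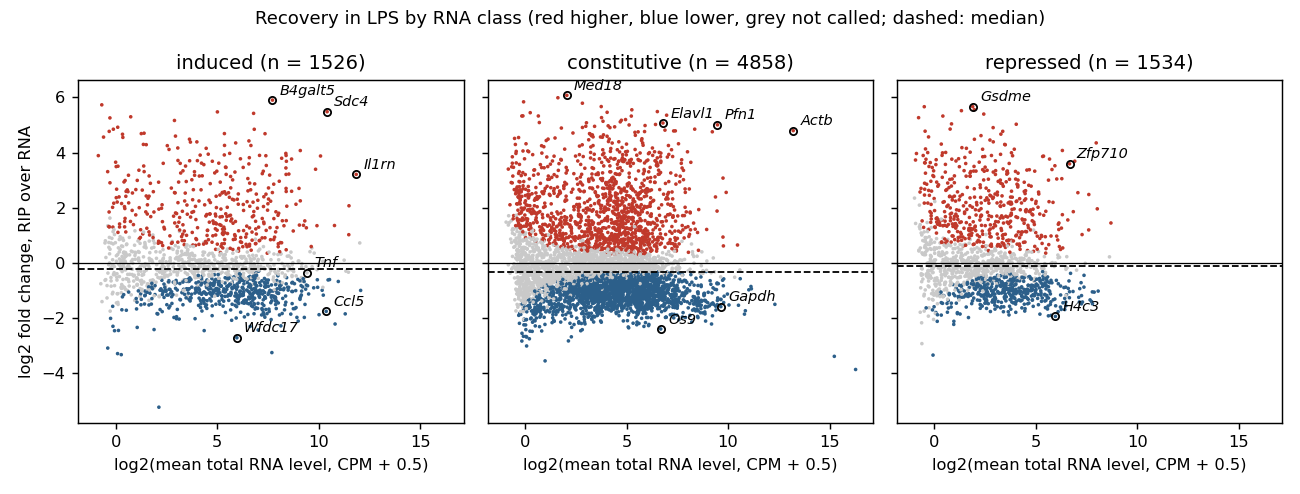
Log2 fold change of anti-HuR RIP over total RNA in LPS against the mean RNA level (log2 of CPM + 0.5) for 1526 induced, 4858 constitutive and 1534 repressed genes, coloured by call, with dashed lines at the class medians of -0.24, -0.34 and -0.10. In each class a cloud below 0 and a spread of genes up to about 6 are seen, and Tnf lies near the median of the induced class.

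The 3′ UTRs of recovered and unrecovered RNAs differed in their runs of U. Each window given here holds the 30 bases with most U in the 3′ UTR of the canonical transcript (GENCODE M39, GRCm39), 5′ to 3′, with runs of 4 or more U in capitals. The windows are chosen examples, and exceptions on both sides are given further below. The first set belongs to strongly recovered mRNAs.
Actb: gUUUUUUUUUUUUUUUUUUUUUUUUUUUUU
Elavl1: UUUUUUUUUUccUUUUcUUUUUUcUUUUUU
B4galt5: UUUUUUUUUUUgguggUUUUUUUUUUUUUU
Sdc4: ugUUUUUUUUUUUUUUUUUUUUUUaaugcu
Il1rn: UUUUUUUgUUUUUgUUUUUUccauuguucu
Sod2: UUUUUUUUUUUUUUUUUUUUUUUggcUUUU
The second set belongs to mRNAs at or below their RNA level, among them AU-rich cytokine mRNAs, the gamma-actin paralog and a glycolytic enzyme.
Tnf: uuauuauuuauuauuuauuuauuauuuauu
Il6: UUUUaauuaUUUUUaauuuauugauaauuu
Il1b: cuuaccuauuuauuuauguauuuauugauu
Ptgs2: auuauuuaauauuuauacugaaUUUUUUUU
Actg1: uauucauucuuuaauuuauguaaggUUUUU
Ccl5: ggguuucuugauucugacccuguauagcuu
Gapdh: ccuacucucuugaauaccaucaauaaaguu
The Actb window has 29 U, that of Sod2 27 and those of Elavl1 and B4galt5 26 each, most of them in long runs. The Tnf window has 22 U but every run is broken by A, so that it holds repeated AUUUA and no run of 4. The 3′ UTR of Tnf contains 8 AUUUA and 8 UAUUUAU, overlaps counted, and no UUUUUU, whereas that of Actb contains 1 AUUUA, no UAUUUAU and 48 UUUUUU. The windows lie at chr5:142889405-142889434 (minus strand) for Actb, chr8:4339541-4339570 (minus strand) for Elavl1, chr2:167142705-167142734 (minus strand) for B4galt5 and chr2:164267049-164267078 (minus strand) for Sdc4. Those of Il1rn and Sod2 lie at chr2:24239957-24239986 (plus strand) and chr17:13235602-13235631 (plus strand). Those of Tnf, Il6, Il1b and Ptgs2 lie at chr17:35418657-35418686 (minus strand), chr5:30224674-30224703 (plus strand), chr2:129206722-129206751 (minus strand) and chr1:149981580-149981609 (plus strand). Those of Actg1, Ccl5 and Gapdh lie at chr11:120236628-120236657 (minus strand), chr11:83416767-83416796 (minus strand) and chr6:125138827-125138856 (minus strand).

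Across 7905 coding genes with at least 5 CPM in RNA and a 3′ UTR of at least 50 bases, recovery rose with the number of U in the most U-rich 30 bases. Where that number was 12 or less, the median log2 fold change was -1.07 and 1.3% of 384 genes were higher by at least 1. At 16 to 18 U the median was -0.67 (4.11% of 2118 genes), at 19 to 21 it was -0.08 (17.9% of 2243) and at 22 to 24 it was 1.05 (51.4% of 1252). At 25 to 27 U the median was 2.28 (71.7% of 611) and at 28 to 30 it was 2.66 (70.5% of 156). The control IgG library showed no such gradient, with medians of IgG over RNA in replicate 3 between -0.06 and 0.03 in all 7 bins. The difference in median between genes with 25 or more U and those with 15 or fewer was 3.30, and it was 3.22, 3.64, 3.35 and 2.82 in same-numbered pairs 1 to 4. In the DMSO libraries, which share no library with LPS, median recovery ran from -1.36 at 12 U or fewer to 2.91 at 28 or more. These bins were chosen after the values had been seen.

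Exceptions stood on both sides. The endoplasmic reticulum chaperone gene Hspa5 has 26 U in its best window but was lower in RIP, at 258, 222, 465 and 589.8 CPM against 1879.6, 1315, 1964 and 1989.8 CPM (log2 fold change -2.22 ± 0.263, SE, edgeR FDR 7e-08). Atp5md, with 25 U in its best window, and Ctsl, with 22, were also lower, at -2.36 and -2.11. Among genes with 25 to 27 U, 11.5% were lower in RIP. The lysosomal protease gene Ctsc has only 18 U in its best window and rose by 3.65 (edgeR FDR 1.94e-12). Ccl4 has 20 U in its best window and rose by 3.39. Of the genes with the highest recovery, Lyrm4 (5.79) has 14 U in its best window, Nnat (5.66) 15 and Gsdme (5.67) 18, and none of these 3 holds UUUUUU in its 3′ UTR. Nnat and Gsdme were under 5 CPM in RNA and met the filter on level only through RIP. Both therefore lie outside the genes binned by U.

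**Figure D3:**
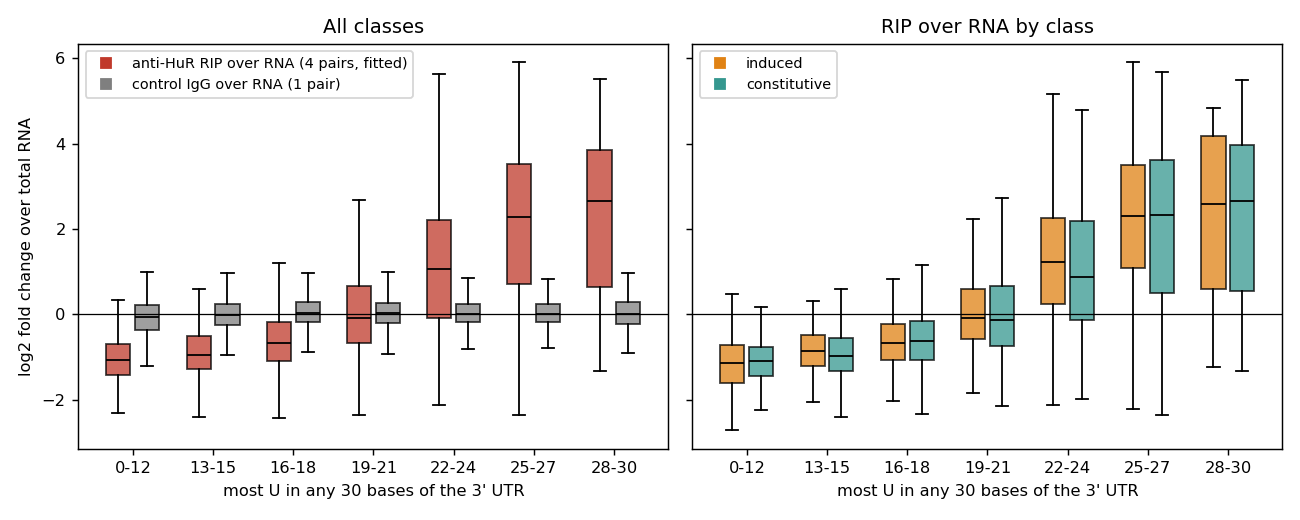
Log2 fold change over total RNA in LPS by the largest number of U in any 30 bases of the 3′ UTR, in boxes from quartile to quartile with the median and whiskers to 1.5 interquartile ranges, for 7905 coding genes. Left, anti-HuR RIP (red) climbs from a median of -1.07 to 2.66 while the IgG library (grey) stays near 0. Right, RIP over RNA for induced (orange) and constitutive (green) genes climbs in both.

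The gradient was present in both classes. For induced genes the median ran from -1.15 at 12 U or fewer (43 genes) to 1.22 at 22 to 24 (167 genes) and 2.31 at 25 to 27 (81 genes). For constitutive genes it ran from -1.10 (189 genes) to 0.87 (527 genes) and 2.32 (245 genes). It was also present among 3′ UTRs of similar length. For 3′ UTRs of 300 to just under 700 bases the median was -0.94 at 15 U or fewer and 2.44 at 24 or more (48 genes). For those of 1500 to just under 3000 bases these medians were -0.72 (91 genes) and 2.00 (375 genes).

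UUUUUU marked recovered genes more often than the AU-rich core UAUUUAU did. Searched on the transcript strand with overlaps counted, UUUUUU occurred in 64.6% of the 7905 3′ UTRs, in 94.5% of those higher by at least 1 and in 36.5% of those lower by at least 1. UAUUUAU occurred in 34.3, 50.4 and 19% of the same sets, and AUUUA in 75.3, 90.9 and 57.6%. Genes with UAUUUAU but no UUUUUU had a median of -0.68 (468 genes), against -0.91 for genes with neither (2328 genes). Genes with UUUUUU but no UAUUUAU had a median of -0.09 (2868 genes), and genes with both 0.47 (2241 genes). Both motifs are more frequent in longer 3′ UTRs, and the median 3′ UTR lengths of these groups differed, at 1017.5, 509, 1605 and 2850.0 bases in the same order. Spearman's rho with recovery, across genes that share the same libraries and are not independent, was 0.61 for U in the best window and 0.58 for the number of UUUUUU. It was 0.43 for 3′ UTR length, 0.40 for AUUUA, 0.27 for UAUUUAU, 0.30 for percent U of the 3′ UTR and 0.08 for percent U of the coding sequence. A match is a description of letters and not a binding site.

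Genes of the ribosome, the respiratory chain and the proteasome were mostly lower in RIP. Of all genes tested 30.8% were lower, and of those at 5 CPM or more 44.9%. Of 79 cytosolic ribosomal protein genes 74 were lower (93.7%) and 1 higher, with a median of -1.43. Rps26 held 114, 103, 124 and 158 CPM in RIP and 622, 599.5, 584 and 521 CPM in RNA (log2 fold change -2.22 ± 0.176, SE, edgeR FDR 4.38e-11), and Rpl34 fell to -2.11. The 1 higher gene, Rpl24 (3.92), was named after its value was seen and had 0.0631 CPM in RNA and 1.01 CPM in RIP. Among members with at least 5 CPM the least reduced were Rpl10a (-0.34, edgeR FDR 0.248), Rps2 (-0.44, edgeR FDR 0.105) and Rpl37a (-0.63, edgeR FDR 0.0271). With the replicate block Rps2 was called lower (edgeR FDR 0.00689). The Rpl37a call was lost in 8 alternatives, 4 of them fits without 1 library (RNA LPS replicates 3 and 4, RIP LPS replicates 1 and 2; edgeR FDR 0.0531 to 0.0777). Ribosomal protein genes have many processed pseudogenes, so their counts are uncertain where reads were shared. For the ribosomal list the median of IgG over RNA was -0.56, so the IgG library was also below total RNA there.

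Of 78 nuclear oxidative phosphorylation genes 72 were lower (92.3%, beside 44.9% of all genes at 5 CPM or more) and none higher by edgeR, with a median of -1.51 and -0.45 in IgG over RNA. Atp5md, a subunit of ATP synthase, reached -2.36 (edgeR FDR 3.99e-11), and Ndufa12, a subunit of complex I, -2.31 (edgeR FDR 1.82e-07). Among members with at least 5 CPM in RNA the highest were Atp5l (0.80, edgeR FDR 0.077) and Sdhc (0.01, edgeR FDR 0.968), and Atp5g2 stood at -0.53. With the replicate block Atp5l was called higher (edgeR FDR 0.0163) and Atp5g2 lower (edgeR FDR 0.0468). Of 38 proteasome genes 33 were lower (86.8%) and 3 higher, with a median of -1.44. The exceptions were Psmd11 (2.49, edgeR FDR 3.5e-12), Psmb2 (1.48, edgeR FDR 2.9e-05) and Psmd9 (1.06, edgeR FDR 4.85e-07), while Psmb6 (-1.97) and Psma5 (-1.84) were the lowest. Of 51 replication-dependent histone genes 31 were lower, which is 60.8%, and 3 higher (median -1.14, IgG over RNA -0.57), and H4c3 and H4c8 fell to -1.94 and -1.91. The 3 higher genes, H2ac10 (4.31), H2bc21 (3.10) and H3c15 (2.76), were named after their values were seen and lay under 1 CPM in RNA. H2bc15, H3c3 and H4c1 were not called, at -0.16, -0.39 and -0.40.

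Lysosomal and glycolytic genes showed the same lean, with IgG over RNA above 0. Of all genes at 5 CPM or more 44.9% were lower. Of 28 lysosome genes 24 were lower, which is 85.7%, and 3 higher (median -1.29, IgG over RNA 0.15). The exceptions were Ctsc, Lamp2 (2.41, edgeR FDR 9.46e-10) and Lgmn (1.98, edgeR FDR 3.02e-08), while the mannosidase gene Man2b1 reached -2.04 and the protease gene Ctsl -2.11. Of 18 glycolysis genes 15 were lower, which is 83.3%, and 3 higher (median -1.14, IgG over RNA 0.31). The 3 higher genes were the glucose transporter gene Slc2a1 (1.80, edgeR FDR 2.47e-09), hexokinase 2, Hk2 (1.71, edgeR FDR 1.43e-05), and Pfkfb3 (1.14, edgeR FDR 0.00106), while the lactate exporter gene Slc16a3 (-1.58), Hk1 (-1.11) and Hk3 (-1.13), named after their values were seen, were lower. Pfkfb3 was not called in replicates 1 and 2 alone (edgeR FDR 0.0701). The abundant enzymes Gapdh and Pkm fell to -1.59 and -1.74, with Gapdh at 278, 230.1, 265 and 286 CPM in RIP and 855, 822, 795 and 724 CPM in RNA.

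**Figure D4:**
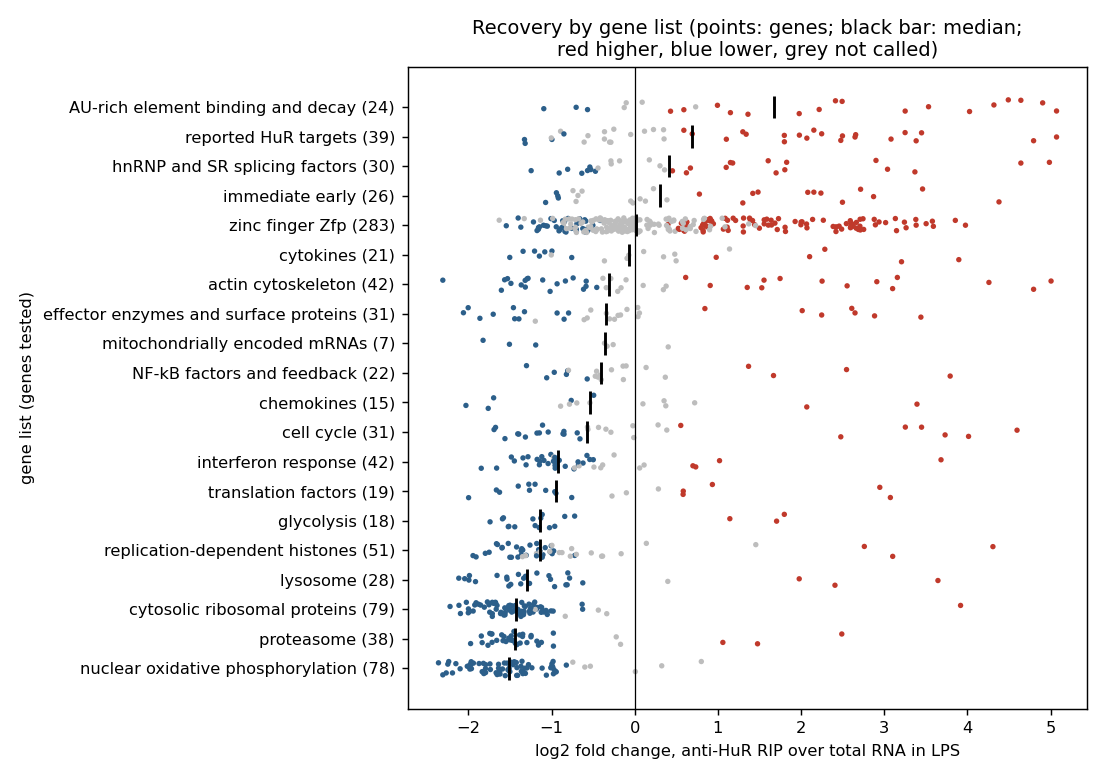
Log2 fold change of anti-HuR RIP over total RNA in LPS for the genes of 20 lists, 1 point a gene, red for higher, blue for lower and grey for not called, with black bars at the list medians. Medians run from -1.51 for nuclear oxidative phosphorylation to 1.67 for AU-rich element binding and decay factors.

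Translation factors and cell cycle genes were mixed. Of all genes at 5 CPM or more 28.8% were higher and 44.9% lower. Of 19 translation factor genes 11 were lower (57.9%) and 5 higher (26.3%), with a median of -0.95. The helicase gene Eif4a1 (3.07, edgeR FDR 5.22e-12), the cap-binding protein gene Eif4e (2.95, edgeR FDR 6.22e-12) and Eif5a (0.93, edgeR FDR 4.49e-06) were higher, as were Eif5 and Etf1 (0.58 each, named after their values were seen), and Eef1d (0.251 on the linear scale) and Eif3b (-1.66) the lowest. Of 31 cell cycle genes 15 were lower (48.4%) and 7 higher (22.6%), with a median of -0.57. Here the D-type cyclin gene Ccnd2 (4.60, edgeR FDR 1.96e-05) and its kinase Cdk6 (3.73, edgeR FDR 4.85e-13) were recovered, as was Cdkn1b, and the replication genes Mcm3 (-1.69) and Pcna (-1.67) were not. Among 283 zinc finger genes named Zfp, 95 were higher and 38 lower (median 0.01), or 33.6% higher and 13.4% lower beside 32.9 and 30.8% of all genes tested and 28.8 and 44.9% of those at 5 CPM or more. Zfp26 (3.98), Zfp251 (3.85) and Zfp710 (3.59) were the highest and Zfp143 (-1.40) and Zfp622 (-1.37) the lowest at 5 CPM or more. Of 7 mitochondrially encoded mRNAs tested 3 were lower (42.9%) and none higher by edgeR (median -0.36). The cytochrome b gene mt-Cytb fell to -1.82 (edgeR FDR 5.96e-06) and mt-Co1 to -1.51 (edgeR FDR 0.000177), while mt-Nd6 (0.40, edgeR FDR 0.348), mt-Nd5 (-0.26, edgeR FDR 0.409) and mt-Nd1 (-0.33, edgeR FDR 0.41) were not called.

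The mRNAs recovered least below their level reached smaller folds than those recovered above it. Wfdc17, a secreted protein gene of the induced class, was the lowest by the same rule, with 8.37, 9.17, 8.63 and 11.7 CPM in RIP and 44.1, 69.5, 71.2 and 63.5 CPM in RNA (log2 fold change -2.72 ± 0.292, SE, edgeR FDR 1.27e-08). The glucosidase II subunit gene Prkcsh (-2.44), the chaperone gene Hsp90b1 (-2.36) and the degradation lectin gene Os9 (-2.40) act in the endoplasmic reticulum. Os9 and Ndufa12 stood at -3.09 and -2.94 in replicates 1 and 2 alone, and Itgax at -1.80 in replicates 3 and 4 alone. The integrin gene Itgax (-2.40), Pet100 (-2.33), Uqcr10 (-2.25), Atpif1 (-2.28) and the complement gene C3 (-2.09) were also among the lowest.

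Among called long noncoding RNAs with an established symbol, a mean of 5 CPM or more in the 8 LPS libraries and no overlap between RIP and RNA, the 5 with the highest recovery were Mir99ahg (3.14, edgeR FDR 3.69e-06), Adap2os (2.66, edgeR FDR 1.49e-05), Morrbid (2.53, edgeR FDR 2.91e-12), Dleu2 (2.28, edgeR FDR 3.04e-07) and Mir142hg (2.02, edgeR FDR 0.00115). Of the 5, Morrbid alone averaged 5 CPM or more in RNA, and the others met the filter on level only through RIP. Mir99ahg stood at 2.08 in replicates 3 and 4 alone. Morrbid, a myeloid RNA that regulates survival of short-lived leukocytes, held 59.1, 72.6, 59.6 and 44.7 CPM in RIP and 10.9, 11.7, 9.69 and 8.57 CPM in RNA. Adap2os overlaps Adap2 on the other strand, and without knowing whether counting used the strand, reads of the pair cannot be told apart. Of 50 long noncoding genes with at least 5 CPM in RNA, 15 were higher and 15 lower (30.0% each), with a median of 0.29, beside 28.8% higher and 44.9% lower of all genes at that level.

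Recovery in LPS was then set against recovery in DMSO by the interaction of treatment and assay. In all, 6 of 14311 genes (0.0419%) were called, 4 with lower and 2 with higher recovery in LPS, by edgeR. The balance of directions depended on the fit: DESeq2 called 66, of which 34 had higher recovery in LPS, and without the shallow RNA DMSO replicate 1 edgeR called 11, of which 8 were higher. In all 1041 genes had an unadjusted p under 0.05 in edgeR. Replicate numbers were taken to pair the samples from correlated deviations, which the labels do not state, and the main fit does not use this pairing. With the replicate block, which does, 50 genes were called. Of the 6 genes, Tnf is the one named by the rule and the other 5 were named after their values were seen.

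Tnf was recovered far above its level in DMSO and not in LPS. In DMSO it held 524, 768, 530.0 and 465 CPM in the RIP libraries and 55.6, 74.9, 43 and 36.2 CPM in the RNA libraries, a log2 recovery of 3.58. In LPS the RIP libraries stayed in the same range, at 662, 492, 460.0 and 514 CPM, while RNA had risen to 588, 761, 675 and 713 CPM. The change in recovery was -3.95 ± 0.447, SE, edgeR FDR 2.45e-05, called in 20 of 21 alternatives and missed in replicates 1 and 2 alone. The IgG libraries held 48.7 CPM in DMSO and 1152 CPM in LPS, near and above total RNA. No other gene of the panel was called, and for Il1b the change was -1.80 (edgeR FDR 0.573).

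Of the other 5 genes, Eno2, neuronal enolase, and Asb1, a ubiquitin ligase adaptor, also had lower recovery in LPS. Eno2 held 10.5, 18.4, 11.9 and 18.6 CPM in RIP and 0.436, 1.69, 1.22 and 1.6 CPM in RNA in DMSO, and 0.662, 0.751, 0.837 and 1.17 and 1.01, 1.07, 1.39 and 0.848 CPM in LPS (-3.88 ± 0.591, SE, edgeR FDR 0.0032). Its RNA level was low in both treatments, under the 3-count floor of 0.654 CPM in RNA DMSO replicate 1, while its RIP level was lower in LPS than in DMSO in every library. The change was not called in replicates 1 and 2 or 3 and 4 alone. Asb1 fell by the same measure (-2.84 ± 0.482, SE, edgeR FDR 0.0132), with 1 of 4 RNA DMSO libraries, the shallow replicate 1, far below the rest. Its log2 recovery was 3.79 in DMSO and 0.95 in LPS, where it was still called higher in RIP (edgeR FDR 0.0161). The change was not called without RNA DMSO replicate 4 or in replicates 1 and 2 alone. Seh1l, a nucleoporin, stood at 3.07 in DMSO and 1.58 in LPS, still called higher in RIP (edgeR FDR 2.76e-07). Its change was the smallest (-1.49 ± 0.284, SE, edgeR FDR 0.0472) and kept its call in 4 of 21 alternatives. Leaving out any 1 LPS or DMSO library ended the call, except RIP LPS replicate 2.

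Slfn2 and Pola2 gained recovery. Slfn2, a Schlafen family gene of immune cell quiescence, held 116, 69.4, 43 and 39.4 CPM in RIP and 147, 133, 98.6 and 82.3 CPM in RNA in DMSO. In LPS these were 2189.7, 2371, 2730.5 and 2526 and 879, 983, 1014 and 974 CPM (1.97 ± 0.353, SE, edgeR FDR 0.0224), and the call held in 13 of 21 alternatives. It was lost without any 1 of the 4 RNA LPS libraries, RNA DMSO replicate 2, or RIP DMSO replicate 2 or 4, and in replicates 1 and 2 alone. Pola2, a subunit of DNA polymerase alpha, went from 13.7, 14.4, 14.9 and 11.4 CPM in RIP, below the 58, 32.8, 43.3 and 40.7 CPM of RNA, to 56, 87.9, 88.5 and 71.6 CPM, above the 42.9, 35.2, 36.9 and 34.5 CPM of RNA (2.55 ± 0.24, SE, edgeR FDR 1.15e-06). Its call held in 20 of 21 alternatives.

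**Figure D5:**
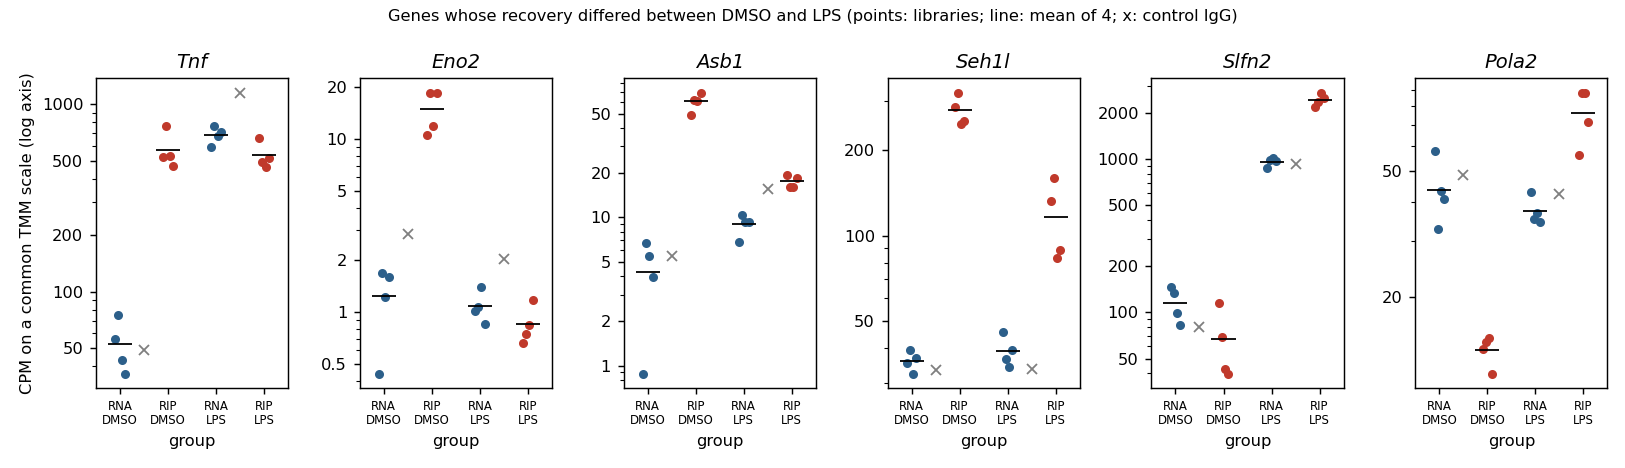
CPM on a common TMM scale (log axes that differ between panels) in the RNA (blue) and RIP (red) libraries of DMSO and LPS for the 6 genes whose recovery was called different, with lines at means of 4 and grey crosses for the single IgG libraries. Tnf shows RIP points at about the same height in both treatments while the RNA points climb, and Pola2 shows RIP below RNA in DMSO and above it in LPS.

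For 3 of the induced genes described here, recovery in DMSO was close to that in LPS or somewhat below it. B4galt5 stood at 5.82 in DMSO and 5.90 in LPS, Sdc4 at 4.71 and 5.48, and Il1rn at 3.06 and 3.21. None of these differences was called. Lif stood at 0.94 in DMSO and 3.90 in LPS, a gap that also missed the threshold. The median over all tested genes was 0.04 in DMSO.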

How the data were processed

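Whole-number counts per gene were deposited by the authors for 27 libraries. Per the submitters' processing notes FastQC 0.11.9, STAR, HTSeq and DESeq2 were used with GRCm39. Neither the annotation release nor the strand setting of counting is stated in the labels. Columns were matched to samples by their titles. From the deposited counts, edgeR 4.0.16 (R 4.3.3, limma 3.58.1) fitted 24 RNA and RIP libraries in 6 groups, with TMM scaling, filterByExpr (minimum count 10), a quasi-likelihood F test and Benjamini-Hochberg adjustment, called at FDR under 0.05. The SE is the log2 fold change divided by the root of F. The script was tested on simulated data. The IgG libraries entered no test.

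Members and gene lists were chosen with earlier results of these data known. Genes named are a panel of 10, the 10 highest and 10 lowest coding genes without overlap between RIP and RNA, the 8 highest and 6 lowest induced and constitutive genes at 20 CPM or more in RNA, up to 3 highest and 2 lowest of each list at 5 CPM, and 5 long noncoding RNAs. A few items that the rule names are not reported here. 3′ UTRs came from GENCODE M39 canonical transcripts.

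Same-numbered RIP and RNA libraries deviated together, with correlations of 0.399, 0.491, 0.451 and 0.425 for replicates 1 to 4, so by the rule that every pair exceed 0.1 the numbers were taken to pair the samples. Some unlike numbers also correlated (RIP 3 with RNA 4 at 0.368, RIP 4 with RNA 3 at 0.314, RIP 1 with RNA 2 at 0.215), so replicates 1 and 2 and replicates 3 and 4 also grouped together. Alternatives were DESeq2 1.42.0, other scalings and filters, the replicate block, the 8 LPS libraries alone, subsets of replicates, and, added after seeing the data, leaving out each DMSO library. RNA DMSO replicate 1 held 2.73 M counts.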

Additional observations from a re-analysis of the deposited data

Results flagged for a closer look

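The change of Tnf recovery between treatments was -3.95 (edgeR FDR 2.45e-05), from 3.58 in DMSO to -0.36 in LPS, by the test of the difference itself. All 4 RIP and 4 RNA libraries of DMSO were apart, and those of LPS overlapped.

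Among 292 groups of 4 libraries, 21 held a library whose gap to the nearest of the others took up more of the range than Dixon's critical value for 4 samples. Chance gives about 1 in 20 groups. Of these, 14 were in RNA, 10 of them in RNA LPS replicate 1, and 7 in RIP.

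For RIP LPS replicate 1 the values were H4c3 at 21.4 CPM against 13.9 to 14.9 CPM in the other 3. For RIP LPS replicate 2 the values were Tspan5 at 985 CPM against 525 to 564 CPM, Plekhf2 at 1243 CPM against 960.5 to 980.3 CPM and Ptbp1 at 92.7 CPM against 102 to 103 CPM in the other 3. It also held Cdk6 at 2576 CPM against 1728 to 1774 CPM in the other 3. For RIP LPS replicate 4 the values were Ccl4 at 4996 CPM against 10798 to 11888 CPM in the other 3. For RNA LPS replicate 1 the values were Ptgs2 at 1885 CPM against 2738 to 2896 CPM, Nutf2 at 17.7 CPM against 28.1 to 30 CPM and Ccl4 at 776 CPM against 950.4 to 973 CPM in the other 3. It also held Sod2 at 272 CPM against 345 to 359 CPM, Cnot1 at 139.8 CPM against 161 to 163 CPM and Pkm at 2392 CPM against 1623 to 1737 CPM in the other 3. It also held Rpl10a at 122 CPM against 211 to 222 CPM, Psmb2 at 39.1 CPM against 67 to 67.9 CPM and Zfp710 at 143 CPM against 82.4 to 88.8 CPM in the other 3. It also held Zfp143 at 24.7 CPM against 22.8 to 23 CPM in the other 3. For RNA LPS replicate 2 the values were Atpif1 at 50.8 CPM against 71.5 to 73.8 CPM, Hspa5 at 1315 CPM against 1879.6 to 1989.8 CPM and Fosl1 at 10.2 CPM against 12.2 to 12.4 CPM in the other 3. For RNA LPS replicate 4 the values were Zfp622 at 28 CPM against 23.6 to 24.3 CPM in the other 3. RIP LPS replicate 4 held 1.86% mitochondrially encoded counts against 0.559 to 0.63% in the other 3.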

How the results depend on the processing

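Counts of genes higher in RIP ranged from 3675 to 5287 and of genes lower from 3331 to 4875 over 26 alternatives, beside 4708 and 4401, and each stayed within 1.5 times. With 1 LPS library left out these counts were 4520 to 4878 and 3866 to 4375. Every called gene that was tested kept its direction under each alternative, except 5 of 8941 in replicates 3 and 4 alone. Higher genes were 48.3 to 58.4% of calls, beside 51.7%. With the replicate block, which uses the pairing, 4992 genes were higher and 4875 lower, and among named genes Cxcl10, Ifnb1, Rps2, Atp5l and Atp5g2 gained a call and none lost one. The change of recovery between DMSO and LPS moved most, to 66 genes with DESeq2, 50 with the replicate block, 13 in replicates 3 and 4 alone and 0 in replicates 1 and 2 alone, where 299 genes had an unadjusted p under 0.05. Without 1 library it was 4 to 11 genes, 11 without RNA DMSO replicate 1; the cause was not tested. The U-rich window gave a Spearman's rho of 0.58 with the longest coding transcript and 0.59 with 3′ UTRs of at least 200 bases. Of 3844 values of named genes under alternatives, 3726 kept their call, 84 lost and 34 gained one, and none reversed. Recovery has no absolute scale, and low counts in RNA limit the folds of genes under 1 CPM.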

Other observations

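Noncoding RNAs outside the lists were named after their values were seen. The mitochondrial ribosomal RNA genes mt-Rnr1 and mt-Rnr2 fell to -3.39 (edgeR FDR 1.7e-07) and -3.87 (edgeR FDR 2.34e-06). RIP replicate 4 carried much of what remained, with mt-Rnr2 at 2216, 1799, 2153 and 15509 CPM in the RIP libraries against 58624, 91262, 84919.6 and 83716 CPM in RNA. Without RIP LPS replicate 4 the values were -4.15 and -5.27. In IgG mt-Rnr2 held 26936 CPM, below total RNA as well. The polymerase III transcripts Rn7sk and Bc1 reached -2.68 (edgeR FDR 1.59e-08) and -4.18 (edgeR FDR 7.4e-06), and Bc1 -5.19 without RIP LPS replicate 4. For Rn7sk and Bc1 the log2 value of IgG over RNA in replicate 3 was -0.96 and -2.3, and that of RIP over IgG -2.19 and -1.85.

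The nuclear RNA Malat1 held 947, 1177, 655 and 714 CPM in RIP and 588, 918, 659 and 446 CPM in RNA and was not called (log2 fold change 0.42 ± 0.296, SE, edgeR FDR 0.217). Neat1, the scaffold of paraspeckles, was called but with overlapping libraries, at 95.1, 88.5, 24.9 and 50.4 CPM in RIP and 20, 35.8, 35.4 and 29.4 CPM in RNA (log2 fold change 1.11 ± 0.45, SE, edgeR FDR 0.0349). The Neat1 value ranged from 0.20 to 1.68 over 26 alternatives. In replicates 3 and 4 alone it was 0.20 (edgeR FDR 0.683). The call was also lost without RNA LPS replicate 1 (0.92), RNA LPS replicate 4 (1.09), RIP LPS replicate 1 (0.88) or RIP LPS replicate 2 (0.92).

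Of 111 processed pseudogenes with at least 5 CPM in RNA, 71 were lower and 9 higher in RIP, with a median of -1.22, beside 28.8% higher and 44.9% lower of all genes at that level. Their reads may be shared with parent genes.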
